A study of Mus musculus with 42 samples.

Results

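Rapamycin and vehicle were compared in double-knockout (DKO) kidneys, in which both Tsc2 and Tfeb were targeted for deletion in the kidney epithelium. The comparison was chosen by sample label and rests on 6 of the 42 libraries of the series: 3 from DKO mice given rapamycin and 3 from DKO mice given vehicle. All 6 libraries came from KspCre+; Tsc2 fl/fl; Tfeb fl/fl kidneys, with Cre under the cadherin 16 promoter. This Cre directs deletion of both genes to the kidney epithelium. Which tubule segments lost them, and how completely, cannot be read from RNA of whole kidney. Rapamycin was injected at 1 mg/kg 3 times per week from post-natal day 25 for 11 injections, vehicle mice received the carrier on the same schedule, and kidneys were taken at day 50. The Tsc2 KO (KspCre+; Tsc2 fl/fl) and Cre-negative control kidneys of the same drug experiment, 3 per treatment, served for comparison. Poly-A RNA was sequenced from pieces of whole kidney, and nothing in the labels says that any piece was freed of neighbouring tissue. The question was which transcripts still respond to rapamycin when Tfeb is targeted in the epithelium.

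TSC2 and TSC1 form the complex that keeps the kinase mTORC1 off, and rapamycin inhibits mTORC1. TFEB is a transcription factor of the MiT-TFE family that switches on genes of lysosomes, of autophagy and of the lysosomal Rag GTPase machinery, and mTORC1 phosphorylates it to keep it in the cytoplasm. mTORC1 also promotes the SREBP programme of sterol synthesis and the ATF4 programme of amino acid and one-carbon metabolism. Loss of Tsc2 in renal tubules leads to enlarged, cystic kidneys.

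The 6 DKO libraries held 17824345 to 22807605 counted reads. Tsc2 stood at 5.53, 6.41 and 6.29 FPKM (fragments scaled to transcript length and sequencing depth) in vehicle libraries 1 to 3, and at 5.85, 5.97 and 5.83 in rapamycin libraries 1 to 3. Tfeb stood at 3.18, 2.65 and 2.57 FPKM with vehicle and at 3.27, 3.29 and 3.26 with rapamycin. Cre-negative kidneys with vehicle held 8.59 to 9.81 FPKM of Tsc2 and 3.89 to 4.70 FPKM of Tfeb, so every DKO library was below every one of these controls for both genes. Neither differed by treatment in DKO kidneys (Tsc2 log2 fold change -0.04, adjusted p = 0.842; Tfeb 0.23, adjusted p = 0.518, edgeR quasi-likelihood test). The other MiT-TFE factors were also low, with Tfe3 at 3.11 to 3.98 and Mitf at 2.46 to 3.89 FPKM over the 6 libraries, and neither passed the edgeR test (adjusted p = 0.913 for Tfe3 and adjusted p = 0.204 for Mitf). All 18 libraries of the drug experiment carried Xist (10.4 to 33.0 FPKM) and next to no Ddx3y (at most 0.0224 FPKM).

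DKO vehicle 1 and 2 stood apart from the other 4 DKO libraries in adrenal cortex transcripts. The 13 adrenal cortex markers summed to 347 FPKM in DKO vehicle 1, 4720 in vehicle 2 and 13.2 in vehicle 3, against 8.24 to 10.3 in the rapamycin libraries. Star, which carries cholesterol into mitochondria for steroid synthesis, was at 64.0, 775 and 1.03 FPKM in vehicle 1 to 3 and at 0.718 to 1.37 with rapamycin. The steroid enzymes Cyp11b1 (36.9, 467 and 0 FPKM), Cyp21a1 (74.4, 1200 and 0) and Hsd3b1 (113, 1640 and 0.249) gave the same order. Chgb and Pnmt, genes of adrenal medulla, were at 233 and 44.4 FPKM in vehicle 2 and at 0 in vehicle 1. Star, Hsd3b1 and Cyp11a1 of the cortex list and Chgb of the medulla list were called lower with rapamycin, but in each case vehicle 3 lay within or near the range of the rapamycin libraries, and no fold is given for them. Without vehicle 1 and 2 none of the 4 was called and Star had a log2 fold change of 0.06.

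Red cell transcripts divided the libraries in a similar way. Hba-a1, an alpha-globin gene, was at 724, 850 and 123 FPKM with vehicle and at 98.1, 37.5 and 99.9 with rapamycin. Hbb-bs, a beta-globin gene, was at 1140, 1080 and 211 against 128, 60.4 and 184 FPKM, and Alas2, which starts haem synthesis in erythroid cells, was at 11.7, 13.6 and 1.40 against 1.36, 1.03 and 1.51 FPKM. Vehicle 1 and 2 were high and vehicle 3 was near the rapamycin libraries. Of 6 erythroid markers tested, 5 were called lower (Hba-a1, Hba-a2, Hbb-bs, Hbb-bt and Alas2). This is 83.3%, against 4.7% of all genes at the FPKM minimum. The list median log2 fold change was -2.81, or -0.70 without vehicle 1 and 2. The paired globin genes are near-identical copies, so their split is uncertain. The markers of fat summed to 431 to 934 FPKM with vehicle and to 712, 57.4 and 253 with rapamycin, and none of the 9 that reached the FPKM minimum was called. For most groups of genes that follow, the calls that remained without vehicle 1 and 2 are given, and for the main counts also those with the adrenal cortex level as a covariate. The part of blood and fat was not tested.

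**Figure D1:**
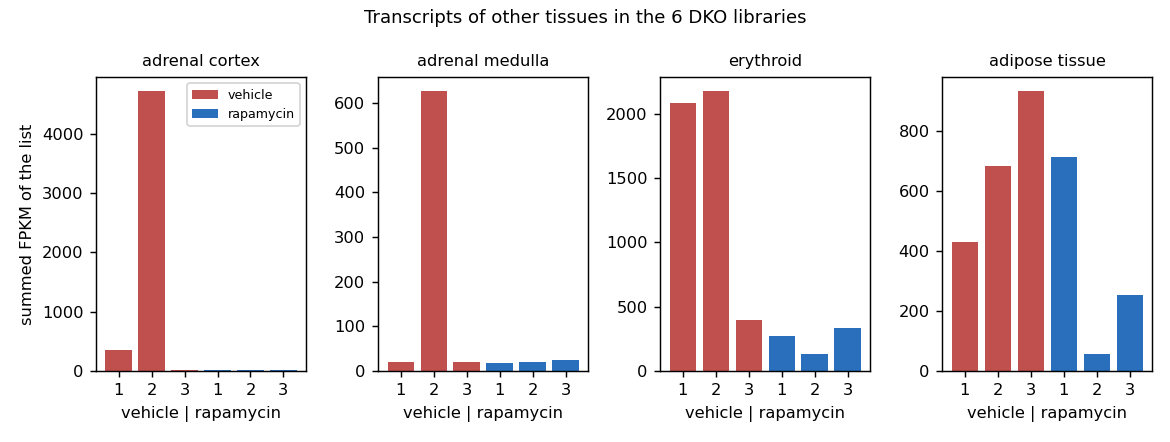
Summed FPKM (linear axes) of the marker lists of adrenal cortex, adrenal medulla, red cells and fat in each DKO library; red bars are vehicle 1 to 3 and blue bars rapamycin 1 to 3. Adrenal cortex markers reach 4720 FPKM in vehicle 2 and 347 in vehicle 1, and red cell markers are above 2000 in these 2 libraries only.

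Rapamycin lowered more genes than it raised in DKO kidneys. Calls required both a Benjamini-Hochberg adjusted p (edgeR, quasi-likelihood, 17027 genes in a fit of all 18 libraries) not above 0.05 and a mean not below 5 FPKM in one of the groups compared. Of the 7723 genes that met the FPKM minimum, 363 were called lower (4.7%) and 211 higher (2.73%), and 1083 and 847 had an unadjusted p under 0.05. Over all 17027 genes, whatever their FPKM, 3.47% passed downward and 2.1% upward. By this rule 146 fell and 56 rose at least 2-fold. The 3 vehicle and 3 rapamycin libraries did not overlap for 355 of the 363 lower genes and for all 211 higher genes, whereas over the 7723 genes they did not overlap in 19.2% downward and 18.3% upward. The median log2 fold change over all tested genes was -0.01. The counts moved with the processing and with single libraries. With the adrenal cortex level as a covariate 202 genes were lower and 50 higher, and DESeq2 gave 569 and 385 with all 6 groups and 729 and 600 with the DKO groups alone. Leaving out vehicle 1, 2 or 3 gave 217, 364 and 265 lower genes and 96, 119 and 97 higher genes. Leaving out rapamycin 1, 2 or 3 gave 217, 133 and 141 lower and 126, 46 and 65 higher genes. Of the calls, 111 lower and 35 higher genes held in all 6 of these fits. Without vehicle 1 and 2 together, 108 genes were lower (1.4%) and 2 higher (0.026%), of which 100 and 2 were among the original calls. In that fit vehicle 3 was the lone vehicle library and its spread was taken from the other groups. All 211 higher and 360 of the 363 lower genes kept their sign there. Where the groups did not overlap, vehicle 3 already lay on one side of all rapamycin libraries. The sign could then hardly change, so its keeping adds no support. With a lone vehicle library a call can be lost while the fold stays about as large.

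The 12 lower genes with the widest gap between the nearest vehicle and rapamycin libraries were led by Aqp8, a water channel. It was at 17.0, 19.3 and 18.4 FPKM with vehicle and at 0.0714, 0.398 and 0.612 with rapamycin, a 48.8-fold decrease (log2 fold change -5.61, SE 0.76, edgeR adjusted p = 0.000634). Cre-negative kidneys with vehicle held 0.0368 to 0.863 FPKM, so the rapamycin-treated DKO level lay within their range. The gene spans chr7:123462291-123468004 on the plus strand in mm10. Cox6a2, the muscle-type isoform of a cytochrome c oxidase subunit, went from 20.4, 9.10 and 16.6 FPKM to 1.41, 0.991 and 0.926 (13.8-fold lower, edgeR adjusted p = 0.00470). Tchhl1, a trichohyalin-like protein, went from 13.0, 5.14 and 13.1 to 0.656, 1.07 and 1.22 FPKM (10.5-fold lower, edgeR adjusted p = 0.000395). Vehicle 2 was the lowest of the vehicle libraries for both, and the groups stayed apart.

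Ang, the secreted ribonuclease angiogenin, was at 14.2, 9.76 and 4.26 FPKM with vehicle and at 0.704 to 0.806 with rapamycin. Its log2 fold change of -3.61 became -2.47 and its adjusted p rose from 0.00252 to 0.138 in the edgeR test without vehicle 1 and 2. Guca2a, the hormone precursor guanylin, went from 51.6, 61.0 and 48.2 FPKM to 13.3, 5.6 and 5.54 (6.61-fold lower, edgeR adjusted p = 0.000435). Its relative Guca2b, uroguanylin, moved the other way, from 70.6, 80.9 and 82.0 FPKM to 175, 211 and 192 (2.48-fold higher, edgeR adjusted p = 0.0197). The 2 genes of one hormone pair thus changed in opposite directions in the same kidneys. The Guca2a call held in all 6 fits with a library left out and the Guca2b call in 3 of them.

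The remaining lower genes of this set included a hormone, a kinase and protease inhibitors. Cck, the peptide hormone cholecystokinin, fell from 44.9, 45.3 and 33.7 to 10.6, 6.57 and 9.65 FPKM. Dmpk, a serine-threonine kinase, fell from 11.7 to 13.5 FPKM with vehicle to 2.30 to 3.06. Fetub, a secreted protease inhibitor, fell from 17.6 to 23.7 FPKM to 2.89 to 5.47, Serpinb6a, an intracellular one, from 23.0 to 32.5 FPKM to 5.96 to 7.26, and Pcp4l1 from 10.9 to 15.7 FPKM to 2.65 to 2.79. Their log2 fold changes were -2.20, -2.22, -2.37, -2.03 and -2.34, with edgeR adjusted p between 7.47e-05 and 0.00905. All but Cck were called in each fit with 1 library left out, and without vehicle 1 and 2. Oasl1 and Cxcl10 complete the set and are described with the interferon genes.

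The 12 higher genes with the widest gaps included transporters, secreted peptides and an enzyme. Akr1c14, an aldo-keto reductase of steroid metabolism, was at 9.41, 9.80 and 8.71 FPKM with vehicle and at 34.5, 38.5 and 42.1 with rapamycin (4.13-fold, log2 fold change 2.05, SE 0.20, edgeR adjusted p = 7.17e-05). Cre-negative kidneys with vehicle held 24.4 to 37.6 FPKM. It was the only one of the 12 higher genes with the widest gaps that was also called without vehicle 1 and 2. Mpv17l, a peroxisomal protein gene, rose from 108, 83.6 and 116 to 249, 272 and 264 FPKM (2.55-fold, edgeR adjusted p = 0.00244) and, like Akr1c14, was called in all 6 fits with a library left out. Slc10a2, the sodium-dependent bile acid transporter, rose from 4.98 to 5.25 FPKM in the vehicle libraries to 17.1, 33.5 and 42.9 (6.11-fold, edgeR adjusted p = 0.0171).

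Of the organic anion transporter family, Slc22a26 was at 0.203 to 0.600 FPKM with vehicle and at 2.66, 3.11 and 9.70 with rapamycin, and Slc22a19 at 13.2 to 16.3 and 38.6 to 45.4 FPKM. They belong to a cluster of similar genes, so their reads may be shared. Sec14l3, a lipid-binding protein, had 0.394 to 1.09 FPKM with vehicle and 2.86, 3.15 and 9.76 with rapamycin, with rapamycin 3 high for it and for Slc22a26. Slc9a8, a sodium-proton exchanger, rose from 10.8 to 14.3 FPKM to 29.7 to 34.6. Apela, a peptide ligand of the apelin receptor, rose from 13.5 to 17.9 FPKM to 46.0 to 59.3, C8a, a complement component, from 1.38 to 2.18 to 6.18 to 7.96, Tmem207 from 3.01 to 5.32 to 11.1 to 17.9, and Scel, sciellin, from 1.48 to 2.87 to 6.31 to 8.58. The calls of C8a, Scel, Slc22a19, Apela and Tmem207 were each lost in all 6 fits with a library left out, with edgeR adjusted p reaching 0.0957 to 0.151.

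**Figure D2:**
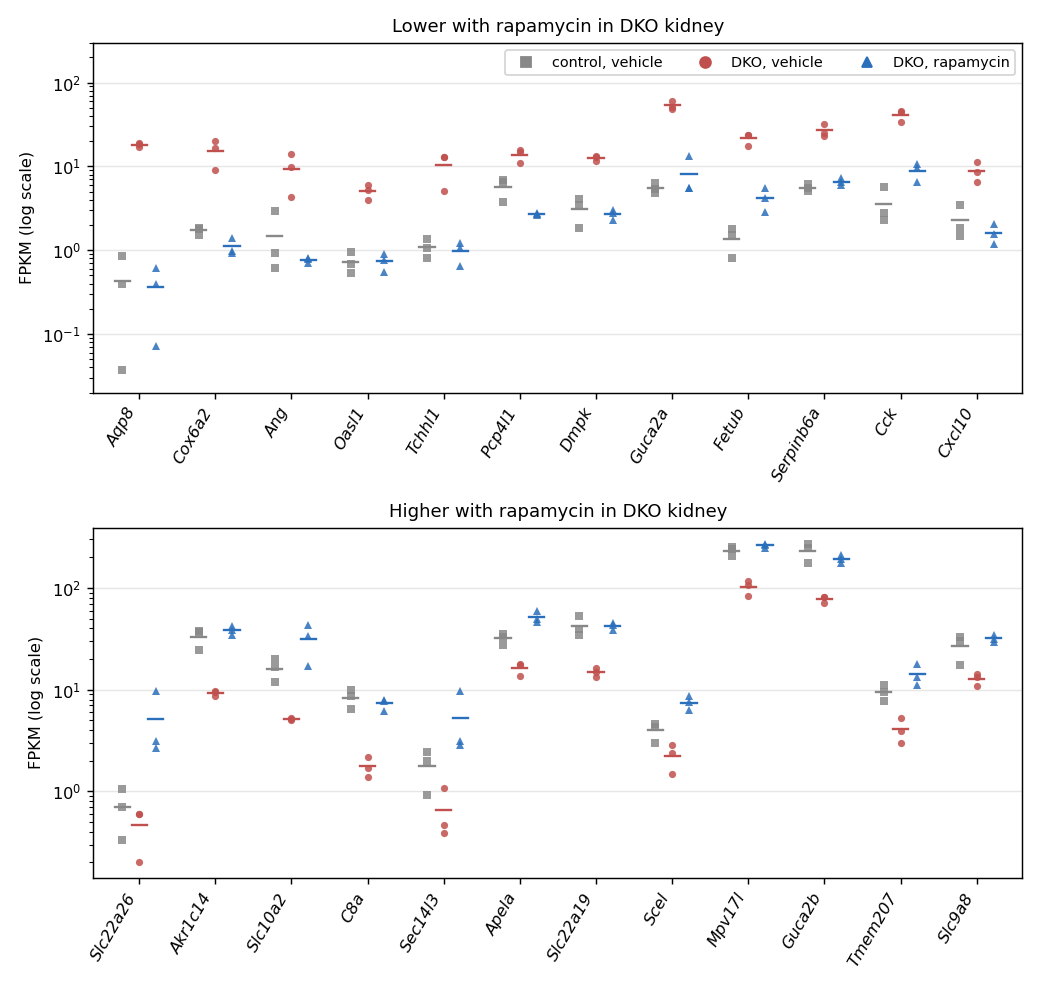
FPKM on a log axis of the 12 lower and 12 higher genes with the widest gap between groups; points are libraries, short lines group means, grey squares control vehicle, red circles DKO vehicle and blue triangles DKO rapamycin. The genes were chosen for the distance between the DKO vehicle and rapamycin points, as for Aqp8 (at most 0.612 against at least 17.0 FPKM).

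Of the lysosomal genes, 18 were lower with rapamycin and 2 higher. The list holds KEGG lysosome genes as the study tabulated them for this cohort, and since the rule for leaving out other members is not stated, it may not be independent of these samples. Of its 96 genes, all tested, 91 met the FPKM minimum, and the lower genes were 19.8% and the higher 2.2% of these, against 4.7% and 2.73% of all genes. Among the 96 log2 fold changes 78 were negative, against 51.2% of all tested genes, and the list median was -0.25. It was -0.29 with 10 lower genes without vehicle 1 and 2. Markers of macrophages, in which Tfeb was not targeted, moved the same way, with 20 of 21 log2 fold changes negative. They summed to 1364, 615 and 1216 FPKM with vehicle and to 390, 304 and 242 with rapamycin. Most of that sum was Apoe, which tubular and other cells also make, and the marker Csf1r was called higher. Of 16 intercalated cell markers 4 were lower (25%). In whole tissue the cells in which lysosomal transcripts changed cannot be told apart, and the part of these cell types was not tested.

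Hexa, the alpha subunit of the hexosaminidase that degrades gangliosides, changed most. It was at 101, 76.0 and 91.6 FPKM with vehicle and at 32.2, 23.9 and 27.5 with rapamycin (3.21-fold lower, log2 fold change -1.68, SE 0.23, edgeR adjusted p = 0.000634). Gusb, beta-glucuronidase, had the smallest adjusted p of the list, going from 13.4, 13.0 and 12.5 to 6.56, 5.52 and 5.71 FPKM (2.19-fold lower, edgeR adjusted p = 6.78e-05). Cathepsins, the lysosomal proteases, formed the largest class. Ctsl fell from 268, 118 and 211 to 75.3, 70.0 and 72.1 FPKM and Ctsb from 389, 225 and 337 to 149, 139 and 132. Ctsc went from 14.3, 9.21 and 11.9 FPKM to 4.70 to 5.58, Ctsd from 303 to 418 to 164 to 199, Ctss from 8.78 to 15.7 to 2.29 to 5.56, and Ctso from 10.1 to 11.0 to 8.06 to 8.35. Vehicle 2 was lowest for Ctsl and Ctsb and highest for Ctss, a cathepsin that macrophages also express.

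Subunits of the vacuolar proton pump, which acidifies lysosomes, and proteins bound to it made up 5 of the 18: Atp6v0d2, Atp6v0a1, Atp6v0b, Atp6v1h and Atp6ap1. Atp6v0d2 fell from 68.0, 38.9 and 62.6 to 22.3, 22.2 and 19.7 FPKM (2.64-fold, edgeR adjusted p = 0.00121), and the others by 1.41- to 1.68-fold. The lipid-handling proteins Npc2, which moves cholesterol out of lysosomes, and Psap, the saposin precursor, fell 1.98- and 1.90-fold. Igf2r, the receptor that sorts mannose 6-phosphate tagged enzymes to lysosomes, fell 1.79-fold, and Gnptab, which makes that tag, 1.58-fold. Gaa, the acid glucosidase that breaks down glycogen, fell 1.33-fold. Ctsh rose from 30.7 to 33.2 FPKM to 41.0 to 44.1 and Ap3b1, an adaptor subunit of lysosomal sorting, from 13.6 to 15.2 to 17.6 to 19.2. Calls that survived the removal of any 1 library numbered 10, namely Hexa, Gusb, Ctsl, Ctsb, Ctsc, Atp6v0d2, Atp6v0a1, Atp6ap1, Npc2 and Igf2r. The 2 higher calls were lost in every such fit.

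The CLEAR motif through which MiT-TFE factors bind contains the letters TCACGTGA. In RefSeq promoter windows of GRCm38.p6, from 250 bases before to 50 after the start, 10 of the 75 lysosomal genes with a window held these letters on either strand, against 1.12% of all 27025 genes with a window and 1.94% of the 12115 of these that were tested. Among the 15 of the 18 lower genes with a window, Ctsd and Igf2r held them, which is 13.3% and the same share as in the whole list. Of all 298 lower genes with a window 2.01% held them, close to the share of tested genes. The 250 bases before the RefSeq start of Igf2r, chr17:12769707-12769956 on the minus strand, are printed 5′ to 3′ on the strand of the gene with the motif in capitals, to show where it lies in a gene that fell. This window does not overlap the gene as the files place it. The shorter core CACGTG, which is part of TCACGTGA, was in 21 of the 75 lysosomal windows, in 8.09% of all and in 11.1% of those of tested genes. These matches describe letters and not binding.
Igf2r: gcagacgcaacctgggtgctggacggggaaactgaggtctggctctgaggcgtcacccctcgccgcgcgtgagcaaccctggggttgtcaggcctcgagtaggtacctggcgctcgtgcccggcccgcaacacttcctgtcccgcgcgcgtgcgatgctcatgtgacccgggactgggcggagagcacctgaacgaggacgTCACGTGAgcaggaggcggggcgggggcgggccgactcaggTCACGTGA

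Of the Rag, Ragulator and folliculin genes, through which mTORC1 is held at the lysosome, 2 of 11 at the FPKM minimum were lower and none higher. The lower ones were 18.2%, against 4.7% of all genes at that minimum. All 13 log2 fold changes were negative (median -0.30). Rragd, which encodes RagD, was at 36.3, 22.5 and 32.5 FPKM with vehicle and at 12.8, 16.9 and 15.3 with rapamycin (2.03-fold lower, edgeR adjusted p = 0.00761), a call kept with each library left out. Flcn, folliculin, the GTPase-activating protein for RagC and RagD, went from 12.4, 11.6 and 13.4 to 9.13, 6.97 and 8.10 FPKM (1.54-fold lower, edgeR adjusted p = 0.00973). Rragd was still called without vehicle 1 and 2 and Flcn was not. Their log2 fold changes there were -1.12 and -0.73, against -1.02 and -0.62 with all libraries. Rragc (23.2 to 31.1 FPKM, edgeR adjusted p = 0.253) and Lamtor1 (20.3 to 28.1 FPKM, edgeR adjusted p = 0.287) did not pass the test. Gpnmb, a known MiT-TFE target, was at 0.219, 0.544 and 1.19 FPKM with vehicle and at 0.113, 0.0138 and 0.00743 with rapamycin, under the FPKM minimum in all 6 libraries (log2 fold change -3.96, SE 1.00, edgeR adjusted p = 0.0302). Tsc2 KO kidneys with vehicle held 17.0 to 18.7 FPKM of it. Of 27 autophagy genes at the minimum, Sqstm1, the cargo receptor p62, Vps18 and Optn were lower by 1.49-, 1.5- and 1.54-fold. They were 11.1% of these genes, against 4.7% of all genes at that minimum. None of them was called without vehicle 1 and 2. Their log2 fold changes there were -0.48, -0.76 and -0.61, against -0.58, -0.58 and -0.63 with all libraries. In the mTORC1 list Tsc1 alone of 16 was lower (1.53-fold, edgeR adjusted p = 0.0324, called in 1 of the 6 fits with a library left out and not without vehicle 1 and 2). This is 6.25%, near the 4.7% of all genes at the minimum.

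Genes of cholesterol synthesis and uptake formed the second group that fell. Of 25 tested and 22 at the FPKM minimum, 8 were lower (36.4%) and none higher, against 4.7% and 2.73% of all genes at that minimum. The list median log2 fold change was -0.57. Insig1, which holds SREBP in the endoplasmic reticulum and is itself an SREBP target, was at 49.1, 29.3 and 50.1 FPKM with vehicle and at 14.4, 12.2 and 12.2 with rapamycin (3.31-fold lower, log2 fold change -1.73, SE 0.19, edgeR adjusted p = 0.000160).

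Of the synthetic enzymes, Msmo1 fell from 10.3 to 13.7 FPKM to 5.35 to 6.14, Sc5d from 14.7 to 23.9 to 10 to 11.4, Sqle, squalene epoxidase, from 11.9 to 18.5 to 9.01 to 10.9, and Hsd17b7 from 7.15 to 9.99 to 5.51 to 6.23. Dhcr7, the last enzyme of the pathway, was at 7.43, 22.4 and 7.08 FPKM with vehicle and at 3.87 to 4.53 with rapamycin, high in vehicle 2, the library with the most adrenal transcripts. Insig1 and Sc5d were lowest in vehicle 2 among the vehicle libraries. Insig1, Msmo1 and Sc5d were called with each library left out, and Insig1 and Sc5d also without vehicle 1 and 2, where the list median was -0.70. Adrenal cells make steroids from cholesterol and use these genes too. In the fatty acid list, Fads1, a desaturase, fell from 65.5 to 86.8 FPKM to 33.5 to 36.9, Scd2, another, from 82.6 to 139 to 40.1 to 48.0, and Mlxipl, the carbohydrate response factor ChREBP, rose from 8.44 to 9.84 to 12.8 to 16.7. Of these 3, Fads1 was called without vehicle 1 and 2.

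The sterol response element TCACCCCAC was in none of the 5 windows that the table gives for the 8 lower genes, and in 0.614% of all windows' genes. CACGTG, an E-box that SREBP1 can also bind, was in 4 of the 5 (Insig1, Sc5d, Dhcr7 and Hsd17b7), in the same 4 of the 17 list members with a window, in 14.8% of all lower genes with one and in 11.1% of tested genes with one. The 250 bases before the RefSeq start of Sc5d, chr9:42264301-42264550 on the minus strand in GRCm38.p6, are printed with CACGTG in capitals, and do not overlap the gene as the files place it.
Sc5d: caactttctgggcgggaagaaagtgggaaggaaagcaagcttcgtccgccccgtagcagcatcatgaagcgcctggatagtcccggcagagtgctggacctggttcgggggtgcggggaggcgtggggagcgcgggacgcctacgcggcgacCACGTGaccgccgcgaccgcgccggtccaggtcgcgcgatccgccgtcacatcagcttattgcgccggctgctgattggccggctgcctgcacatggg

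**Figure D3:**
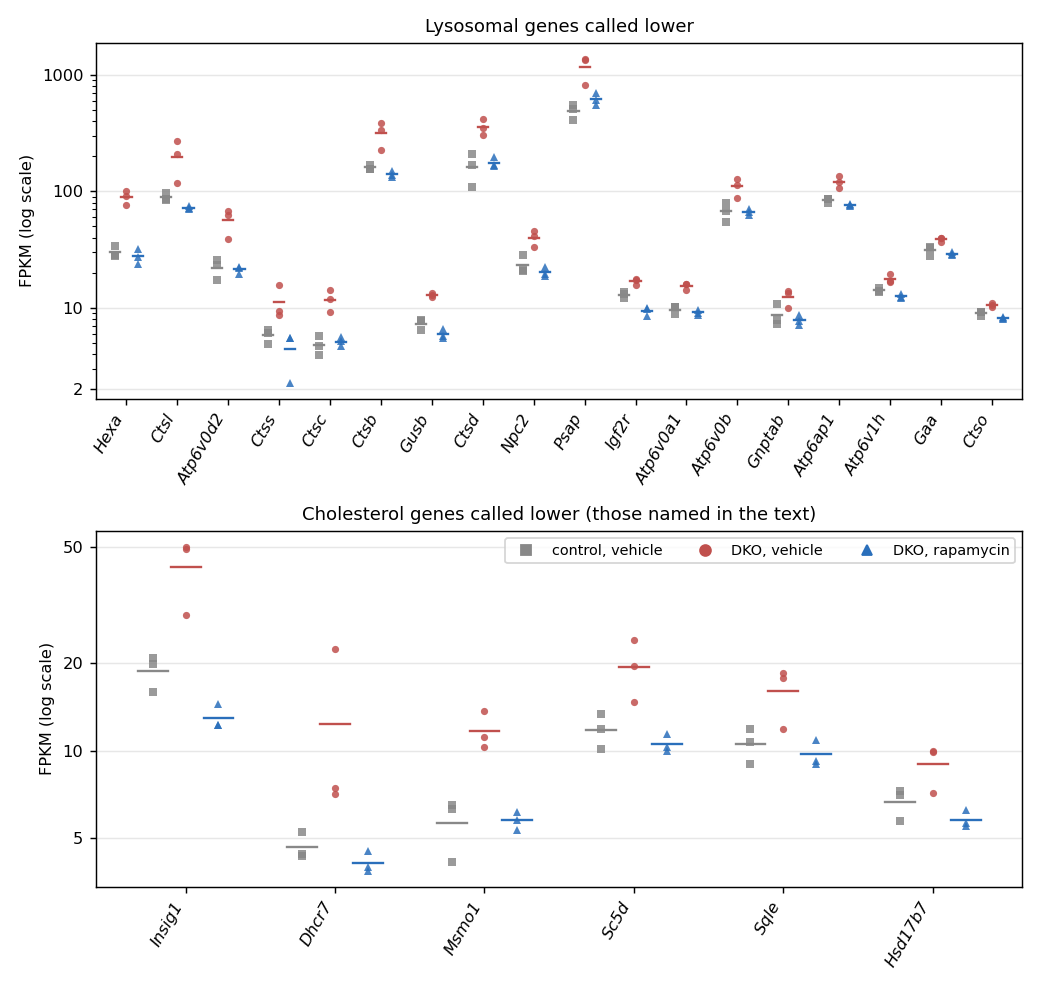
FPKM on log axes of the 18 lysosomal genes (top) and of the cholesterol genes named in the text (bottom), all called lower and each ordered by log2 fold change; points are libraries, short lines group means, grey squares control vehicle, red circles DKO vehicle and blue triangles DKO rapamycin. Rapamycin-treated DKO kidneys lie near the control level for most of them, for example Hexa at 23.9 to 32.2 FPKM against 28.1 to 33.9 in controls.

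Of 30 ATF4 targets and one-carbon genes, 19 met the FPKM minimum and 6 were lower (31.6%), against 4.7% of all genes at that minimum. The list median log2 fold change was -0.64. Ddit4, the mTORC1 inhibitor REDD1, fell from 45.5, 42.2 and 44.0 to 17.6, 8.40 and 13.4 FPKM (3.34-fold, edgeR adjusted p = 0.00500) and was the only one of the 6 called with each library left out. Atf4 itself fell from 39.4 to 43.2 FPKM to 24.8 to 28.6 and its relative Atf5 from 13.0 to 17.6 to 5.34 to 10.3. The serine synthesis enzymes Psat1 and Psph fell 2.12- and 1.77-fold, and the stress factor Ddit3 1.91-fold, with vehicle 2 highest for Ddit3 (16.0 FPKM) and rapamycin 1 close to the lowest vehicle library (8.40 against 8.59). Mthfd2, a mitochondrial folate enzyme, went from 3.29, 3.35 and 3.03 to 1.78, 1.64 and 1.56 FPKM, with edgeR adjusted p = 0.00774 but below the FPKM minimum. Without vehicle 1 and 2 the list had 0 calls and a median of -0.66.

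Of 24 interferon response genes tested, 13 met the FPKM minimum. Of these, 6 were lower (46.2%) and 1 higher (7.69%), against 4.7% and 2.73% of all genes at that minimum. Of the 24 log2 fold changes 23 were negative, against 51.2% of all tested genes, and the median was -0.86. The median of the macrophage markers was -0.96, and the part of these cells was not tested. Cxcl10, a chemokine, was at 11.3, 6.45 and 8.57 FPKM with vehicle and at 1.2, 2.07 and 1.55 with rapamycin (5.42-fold lower, edgeR adjusted p = 0.000976). Bst2, the antiviral protein tetherin, was at 46.7, 44.7 and 43.7 against 15.7, 14.3 and 14 FPKM (3.07-fold lower, edgeR adjusted p = 0.000379). The transcription factors Irf7 and Irf9 fell from 6.06 to 9.51 FPKM to 2.29 to 2.68 and from 4.89 to 5.40 to 2.89 to 3.22. Ifit1 fell 4.08-fold, Isg15 3.19-fold and, outside the list, Oasl1 from 5.97, 4.00 and 5.26 to 0.909, 0.775 and 0.557 FPKM. Gbp3, a guanylate-binding protein, rose from 5.56 to 7.82 FPKM to 11.4 to 14.6. Cxcl10, Bst2, Irf7, Irf9 and Ifit1 were called with each library left out and without vehicle 1 and 2.

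Of 18 tubular injury genes at the FPKM minimum, 5 were lower (27.8%) and 1 higher (5.56%), against 4.7% and 2.73% of all genes at that minimum. Cdkn1a, the cell cycle inhibitor p21, fell from 9.73, 9.68 and 9.12 to 2.22, 3.06 and 3.5 FPKM (3.24-fold, edgeR adjusted p = 0.000816). Clu, clusterin, fell from 168 to 196 FPKM to 67.4 to 74.9, Spp1, osteopontin, from 1440 to 3290 to 1080 to 1230, Tnfrsf12a from 13.2 to 21.1 to 4.53 to 6.39, and Sox4 from 6.02 to 7.90 to 2.86 to 3.52. Cp, the copper protein ceruloplasmin, rose from 4.13 to 5.20 FPKM to 8.91 to 15.0. Of 15 NRF2 targets, Hmox1, which breaks down haem, fell from 52.0, 23.5 and 44.0 to 8.67, 8.67 and 9.62 FPKM (4.43-fold, edgeR adjusted p = 0.00106), Srxn1 fell 1.71-fold, and Ftl1, the ferritin light chain, 1.79-fold. Red cell transcripts differ between the groups as given above, and their part in the haem-related genes was not tested. Without vehicle 1 and 2 the injury list had 2 lower genes (Cdkn1a and Spp1) and 0 higher, and of the NRF2 targets Hmox1 and Ftl1 were called. Of the 9 calls in these lists, those of Cdkn1a, Clu, Cp, Hmox1 and Srxn1 were kept with each library left out.

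The remaining pathway lists had few calls. Of all genes at the FPKM minimum 2.73% were called higher and 4.7% lower. Those of Ace and Glis2 were kept with each library left out, but none of the calls in this paragraph was kept without vehicle 1 and 2. There the log2 fold change went from 1.12 to 1.00 for Ace and from 0.77 to 0.80 for Acadm. It shrank from 0.77 to 0.55 for Glis2 and from -1.47 to -0.64 for Sparc. Ace, which makes angiotensin II, rose from 15.5, 17.9 and 19.0 to 39.5, 40.8 and 33.4 FPKM (2.18-fold, edgeR adjusted p = 0.00382) and Atp6ap2, the prorenin receptor, fell 1.42-fold. Of 24 fatty acid oxidation genes at the FPKM minimum, Acadm and Ehhadh (8.33%) rose 1.70- and 1.79-fold. Of the 25 tested, 16 had negative log2 fold changes (median -0.11), against 51.2% of all tested genes. Slc2a1, the glucose transporter GLUT1, rose 1.69-fold, while the glycolytic enzymes Pgam1 and Pfkm fell 1.34- and 1.35-fold. Glis2 and Glis3, transcription factors tied to cystic kidney disease, rose 1.70- and 1.5-fold. Slc39a8, a metal transporter, rose 1.5-fold. Grb10 and Sesn1 of the insulin list fell 1.69- and 1.47-fold, Klf6 and Dusp6 of the immediate early list 1.58- and 1.48-fold, and Sparc of the matrix list 2.78-fold, with 187 FPKM in vehicle 2 against 48.1 and 53.5 in the other vehicle libraries. No gene was called in the lists of cytoplasmic ribosomal proteins (39 at the FPKM minimum, median log2 fold change -0.01), ribosome biogenesis (16, -0.02), nuclear oxidative phosphorylation (31, -0.21), the pentose phosphate pathway (6, -0.21), the circadian clock (10, -0.01), calcium and klotho (15, -0.05) or the cell cycle. Of the 32 cell cycle genes 3 met the FPKM minimum, 24 had negative log2 fold changes, and the list median was -0.47. Pcna was at 20.0 to 20.7 FPKM with vehicle and 13.7 to 15.1 with rapamycin (edgeR adjusted p = 0.0533).

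**Figure D4:**
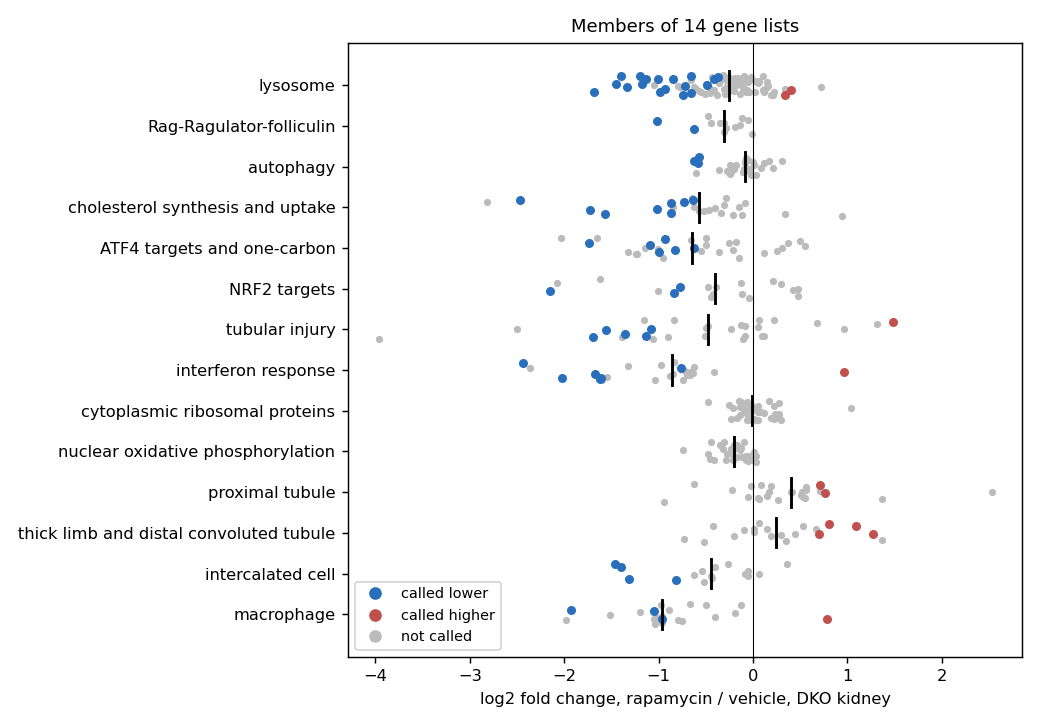
Log2 fold change (rapamycin over vehicle, DKO kidney) of the tested members of 14 gene lists; each point is a gene, coloured where called, and the vertical bar is the list median. Interferon, macrophage, ATF4 and cholesterol medians lie between -0.96 and -0.57, and the ribosomal protein median is at -0.01.

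Marker lists of cell types were read with the limit that in whole tissue fewer cells of a type and less RNA per cell cannot be told apart. Proximal tubule markers summed to 10468, 7014 and 10371 FPKM with vehicle and to 14985, 15394 and 14847 with rapamycin. Of the 24 at the FPKM minimum 2 were called higher (8.33%), against 2.73% of all genes at that minimum. These were Slc27a2, a fatty acid transporter (473, 380 and 507 against 865, 801 and 639 FPKM), and Slc3a1, an amino acid transporter subunit (184, 118 and 191 against 270, 274 and 262). Vehicle 2 was the lowest library for both. Their calls were kept in 2 and 1 of the 6 fits with a library left out, and neither without vehicle 1 and 2. Thick limb and distal tubule markers had 4 of 19 higher (21.1%), against 2.73% of all genes at the FPKM minimum. None of these calls was kept without vehicle 1 and 2. The summed level of these markers overlapped between vehicle (3473, 3023 and 3698 FPKM) and rapamycin (3175, 3540 and 2816). Of the 4, Slc12a1, the furosemide-sensitive cotransporter NKCC2, rose 2.13-fold, Cldn16 1.74-fold and the kinase Wnk4 1.62-fold. Fxyd4, a pump regulator of principal cells, was the only one of 12 principal cell markers at the FPKM minimum that was called (8.33%). It rose from 4.08, 14.1 and 8.61 to 26.8, 31.7 and 26.0 FPKM, a call kept in 1 of the 6 fits with a library left out and not without vehicle 1 and 2. In control kidneys it was at 9.90 to 12.7 FPKM with vehicle and 29.9 to 35.7 with rapamycin, and the 2 log2 fold changes differed by 0.12.

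Intercalated cell markers had 4 of 16 lower (25%) and none higher, against 4.7% and 2.73% of all genes at the FPKM minimum. Slc26a4, the chloride-bicarbonate exchanger pendrin of intercalated cells, was at 99.8, 44.1 and 90.8 FPKM with vehicle and at 34.0, 32.9 and 27.4 with rapamycin. The pump subunits Atp6v1g3 and Atp6v1c2 fell 2.75- and 1.76-fold beside Atp6v0d2. All 4 were lowest in vehicle 2 among the vehicle libraries and still above the rapamycin range. With each library left out in turn, only Atp6v0d2 of the 4 was always called. The Slc26a4 call was kept in 1 of the 6 fits, but also without vehicle 1 and 2 together. Of 21 macrophage markers 20 had negative log2 fold changes (median -0.96) and 7 met the FPKM minimum. Apoe, C1qb and C1qc were lower (42.9%) and Csf1r higher (14.3%), against 4.7% and 2.73% of all genes at that minimum. Apoe, which tubular and other cells also make, accounted for most of the summed level, at 1280, 503 and 1130 against 344, 246 and 174 FPKM. The complement genes C1qb and C1qc fell 2.06- and 1.95-fold, and Csf1r, the receptor that macrophages need to survive, rose 1.72-fold. None of these 4 calls was kept in all 6 fits with a library left out, and only that of Apoe was kept without vehicle 1 and 2. Podocyte, endothelial and fibroblast lists had no call among 7, 13 and 7 genes at the FPKM minimum, and the B cell list none among 2. No T cell or skeletal muscle marker met that minimum, so none could be called.

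The same drug in Tsc2 KO kidneys, which keep Tfeb, gave more calls: 1694 higher (21.2%) and 1384 lower (17.3%) of 7997 genes. The 2 comparisons share no library, but vehicle 1 and 2 of both genotypes held adrenal cortex transcripts. The adrenal genes Hsd3b1 and Cyp11a1 were called lower in both comparisons. How much of the overlap below comes from such transcripts was not tested. Of the 363 genes lower in DKO kidneys, 243 were also lower in Tsc2 KO kidneys, which is 66.9% of the first list and 17.6% of the second, and 3 were higher. Of the 211 higher genes, 149 were shared, or 70.6% and 8.80%, and 1 went the other way. The lower genes had median log2 fold changes of -0.82 in DKO and -0.77 in Tsc2 KO kidneys, the higher genes 0.76 and 0.90. In Cre-negative controls rapamycin left 0 genes higher and 5 lower (0.0664%) of 7535, and the DKO genes had medians of -0.13 and 0.08 there. These genes were chosen by their DKO calls, which favours large DKO changes, so the medians of the genotypes are not on equal terms. The same limit holds for the single genes that follow. For Hexa the log2 fold changes were -1.68 in DKO, -1.61 in Tsc2 KO and -0.57 in control kidneys, and the difference between DKO and Tsc2 KO was -0.07 (SE 0.31, edgeR interaction adjusted p = 0.933). For Ctsl, Ctsb and Gusb these differences were 0.05, -0.07 and -0.04, each with an SE of 0.15 to 0.32.

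The interaction test called 911 genes whose response to rapamycin differed between DKO and Tsc2 KO kidneys, 242 (2.93%) toward a more positive and 669 (8.11%) toward a more negative change in DKO kidneys. Tsc2 KO vehicle 1 and 2 also held adrenal cortex transcripts (summed FPKM 2031 and 59.8), and without these and DKO vehicle 1 and 2 the count was 158. The 6 protein-coding genes with the smallest p were all called higher with rapamycin in Tsc2 KO kidneys. Cyp2d12, a cytochrome P450, was at 11.7, 9.84 and 12.5 FPKM in DKO vehicle and at 27.9, 20.3 and 19.3 in DKO rapamycin kidneys, against 0.182 to 0.393 and 19.6 to 35.8 in the Tsc2 KO pair (difference of log2 fold changes -5.59, SE 0.41, edgeR adjusted p = 2.85e-06). Slc13a3, a dicarboxylate transporter, stayed between 106 and 181 FPKM in all 6 DKO libraries but went from 10.8 to 14.5 to 146 to 199 in Tsc2 KO kidneys (difference -3.57, SE 0.26, edgeR adjusted p = 2.85e-06). Klk1, tissue kallikrein, stayed between 1650 and 1980 FPKM in DKO kidneys and went from 220 to 331 to 2280 to 3520 in Tsc2 KO kidneys. Papss2, Kmo and Slc4a9 followed, with differences of -2.16, -2.14 and -3.29.

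By list, of the genes at the FPKM minimum in this comparison, 16 of 24 proximal tubule, 13 of 24 fatty acid oxidation and 6 of 31 oxidative phosphorylation genes had a more negative change in DKO than in Tsc2 KO kidneys and none a more positive one, against the 8.11% and 2.93% over all such genes. Other lists went the opposite way. Of 23 ATF4 and one-carbon genes 6 were more positive and 2 more negative (medians -0.64 in DKO and -1.38 in Tsc2 KO kidneys), of 11 cell cycle genes 5 and 0, and of 22 injury genes 4 and 0. For proximal tubule markers the median change was 0.40 (log2) with 2 genes higher in DKO kidneys, and 1.94 with 21 higher in Tsc2 KO kidneys. The DKO median was 0.27 without vehicle 1 and 2, and -0.086 with the adrenal cortex level as a covariate. In the lysosomal list 18 genes were lower in DKO and 37 in Tsc2 KO kidneys, with medians of -0.25 and -0.23, and of its 96 genes 5 had a more positive and 2 a more negative change in DKO kidneys. Slc26a4 changed in opposite directions, from 3.85, 6.86 and 9.15 FPKM to 53.1, 48.0 and 35.6 in Tsc2 KO kidneys while it fell in DKO kidneys (difference -4.10, SE 0.44, edgeR adjusted p = 0.000126). Pcp4l1 changed in DKO kidneys and was at 2.96 to 4.75 FPKM with vehicle and 2.86 to 4.57 with rapamycin in Tsc2 KO kidneys (difference -2.41, SE 0.35, edgeR adjusted p = 0.000880). Cxcl10 differed by -2.01 (SE 0.48, edgeR adjusted p = 0.0183), and Cp by 1.83 (SE 0.35, edgeR adjusted p = 0.00604).

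**Figure D5:**
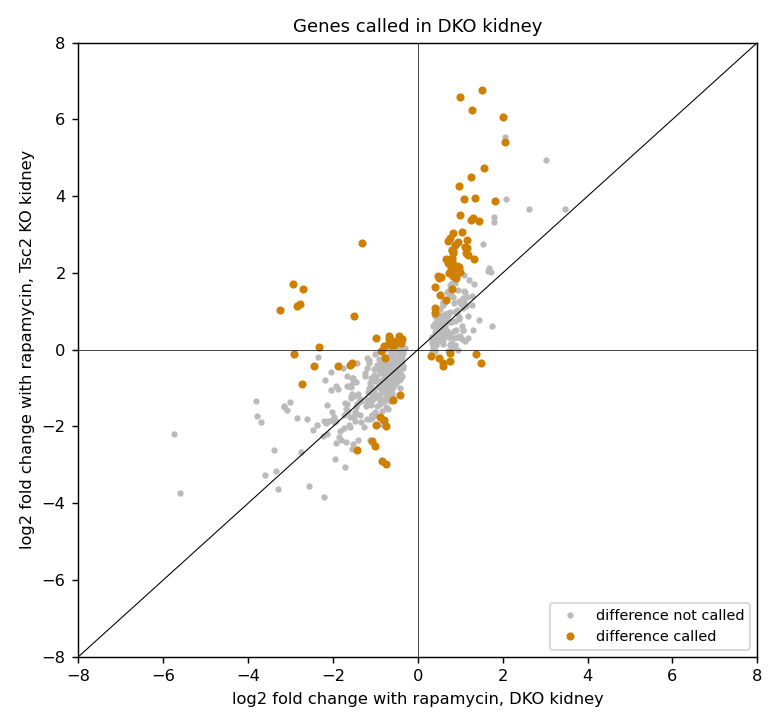
Log2 fold change with rapamycin in DKO kidney (x) against Tsc2 KO kidney (y) for 569 genes called in DKO kidney; the 5 called genes beyond 8 on the x axis are not drawn. Orange points are the 103 genes whose 2 changes differed in the interaction test, and most of those on the right lie above the line of equal change.

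Against the control kidneys the interaction test called 50 genes, 15 (0.189%) more positive and 35 (0.441%) more negative in DKO kidneys. Aebp1, a secreted matrix protein, fell from 60.1, 61.8 and 47.9 to 15.9, 15.7 and 16.3 FPKM in DKO kidneys and was at 18.8 to 20.7 and 16.4 to 19.5 FPKM in control kidneys with vehicle and rapamycin (difference -1.66, SE 0.18, edgeR adjusted p = 0.000451). It also had the smallest adjusted p of the whole DKO comparison among the genes named here (log2 fold change -1.82, SE 0.13, edgeR adjusted p = 4.39e-06). Syn2, a synaptic vesicle protein gene, fell from 8.47, 5.93 and 8.34 to 2.02, 2.07 and 1.89 FPKM in DKO kidneys against 1.70 to 2.31 and 1.32 to 1.73 in controls (difference -1.59, SE 0.22, edgeR adjusted p = 0.00441). Fam129a differed by -1.61 and Serpinb6a by -2.10. Akr1c14 and Slco1a6, an organic anion transporter that rose from 26.4 to 33.4 FPKM to 60.1 to 71.3, differed by 2.77 and 2.17. In control kidneys these genes had log2 fold changes of -0.72 and -1.03, neither called. Slco1a6 was at 77.4 to 90.3 FPKM there with vehicle and at 35.5 to 48.9 with rapamycin. Aqp8 differed by -6.05 (SE 1.05, edgeR adjusted p = 0.0204). Aebp1, Syn2, Fam129a, Serpinb6a, Akr1c14 and Aqp8 were called in DKO kidneys with each library left out and without vehicle 1 and 2, while Slco1a6 was called with each library left out but not without both.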

How the data were processed

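RNA was taken from pieces of whole kidney, and the poly-A libraries keep no strand, so overlapping and antisense genes cannot be told apart. The submitters' processing notes name STAR 2.6.1d, HISAT2 2.0.5, featureCounts 1.5.0-p3, DESeq2 1.20.0 and mm10. The authors deposited raw gene counts, used here for all tests, and FPKM values, used for levels and for the FPKM minimum. Counts were filtered with filterByExpr, scaled with TMM and tested with edgeR 4.0.16 (glmQLFit and glmQLFTest, R 4.3.3) in one fit of 6 groups with 3 libraries each. DESeq2 1.42.0 was an alternative, and the closing section gives the effect of the others (normalization, filters, covariates, the replicate number as a block, and libraries left out). Standard errors are the absolute log2 fold change divided by the square root of the F statistic. The script was tested on simulated counts.

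The members and gene lists were chosen with earlier results of these data known. The genes named by rule were Tsc2 and Tfeb, the 12 higher and 12 lower called protein-coding genes with the widest gap in log2 CPM (prior count 2) between groups that did not overlap, Gpnmb, Mthfd2, Rragc, Rragd, Lamtor1 and Flcn, up to 2 genes per list and direction by adjusted p, or the most abundant ones where none was called, up to 6 genes per interaction, and the most abundant adrenal markers. The further called members of the lists, with Tfe3 and Mitf, were named after their values were seen. Gene positions are those of the files, and 53499 of 54532 had the same start and end in GENCODE M21. The labels do not say whether replicates are separate animals, so p-values measure the spread between these samples. Replicates differed by more than sampling noise (chi-square per gene 16.4 to 86.8), and none was merged. DKO vehicle 2 gave 86.8 with vehicle 1 and 83.3 with vehicle 3, while vehicle 1 and 3 gave 16.4. The rapamycin pairs gave 17.9 to 26.9. Tables of the other cohorts were not used here. Some members of the cholesterol and thick limb lists are counted but not reported here by name.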

Additional observations from a re-analysis of the deposited data

Results flagged for a closer look

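The responses to rapamycin that differed between genotypes in the edgeR interaction test are given here as the log2 fold change in DKO minus that in the other genotype. Against Tsc2 KO kidneys 911 genes differed. Of the genes named above, those of red cells differed by -4.29 (Hbb-bs), -3.99 (Hba-a1), -4.66 (Hbb-bt), -4.28 (Hba-a2) and -3.96 (Alas2). These genes were high in DKO vehicle 1 and 2. Transporters and channels differed by -5.24 (Slc22a19), -4.10 (Slc26a4), -3.57 (Slc13a3), -3.29 (Slc4a9), -2.16 (Slc27a2), -1.54 (Slc3a1), -1.38 (Slco1a6) and -0.79 (Cldn16), and by 1.05 (Slc2a1). Enzymes differed by -5.59 (Cyp2d12), -3.35 (Akr1c14), -2.16 (Papss2), -2.14 (Kmo), -1.68 (Ehhadh), -0.83 (Sc5d) and -0.68 (Pfkm), and by 1.45 (Mthfd2). The remaining genes were Klk1 (-3.32), Mpv17l (-2.60), Pcp4l1 (-2.41), Guca2b (-2.12), Cxcl10 (-2.01), Guca2a (-1.84), Ctsh (-0.69), Ctso (-0.64), Tsc2 (-0.54), Atf5 (1.51) and Cp (1.83).

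Against control kidneys 50 genes differed. The more negative changes in DKO kidneys were those of Aqp8 (-6.05), Cck (-3.42), Fetub (-2.92), Oasl1 (-2.68), Serpinb6a (-2.10), Dmpk (-1.92), Cdkn1a (-1.90), Pcp4l1 (-1.81), Scd2 (-1.67), Aebp1 (-1.66), Fam129a (-1.61), Syn2 (-1.59), Bst2 (-1.58), Ctsc (-1.34), Insig1 (-1.26) and Irf9 (-0.91). The more positive ones were those of Akr1c14 (2.77), Slco1a6 (2.17), Mpv17l (1.56) and Ace (1.44).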

How the results depend on the processing

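The main counts were 211 higher and 363 lower genes in DKO kidneys, and 911 and 50 genes that differed from Tsc2 KO and control kidneys. DESeq2 with 6 groups gave 385 higher, 569 lower and 229 differing from control, and with the DKO groups alone 600 and 729. RLE size factors in place of TMM gave 214, 373, 916 and 50. Fits of the DKO groups alone cannot give the differences between genotypes. Without the FPKM minimum 358 genes were higher and 591 lower, and with it in every library 578 and 25 differed from Tsc2 KO and control. Without the low-count filter 104 differed from control, and with Xist as a covariate 18. With the adrenal cortex level as a covariate 50 genes were higher and 202 lower. Leaving out 1 DKO library gave 46 to 126 higher, 133 to 364 lower, 510 to 1189 differing from Tsc2 KO and 10 to 64 differing from control. Without vehicle 1 and 2 these were 2, 108, 491 and 21. Leaving out the 4 libraries with adrenal transcripts, an alternative chosen after seeing the data, gave 158 differing from Tsc2 KO. The causes were not tested.

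The replicate numbers are shared between groups, and the labels do not say whether they pair the samples. The deviations of same-numbered vehicle and rapamycin libraries correlated at -0.30, -0.24 and -0.09, and those of differently numbered ones at -0.14 to 0.36. With 3 libraries per group these values cannot decide whether the samples are paired. With the replicate number as a block 184 genes were higher, 329 lower, 831 differed from Tsc2 KO and 45 from control.

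Of 2338 pairs of a named gene and a setting, 1700 kept direction and side of the threshold, 605 lost and 16 gained the call, and 17 changed sign. The log2 fold changes that changed sign were Klk1 -0.026 and Tfe3 0.055 with the Xist covariate, and Tsc2 0.013, Star 0.12 and Slc13a3 -0.13 with the adrenal covariate. With 1 library left out Slc4a9 ranged from -0.30 to 0.087, Slc13a3 from -0.024 to 0.30 and Tfe3 from -0.15 to 0.034. Without vehicle 1 and 2, Slc13a3 was -0.059, Star 0.061, Hsd3b1 0.26, Cyp11b1 0 and Cyp21a1 3.75. Among list medians, that of proximal tubule markers became -0.086 with the adrenal covariate. Other medians also changed sign over the settings, among them fatty acid synthesis (-0.61 to 0.13), skeletal muscle (-1.74 to 0.84) and circadian clock (-0.58 to 0.21). Those of the lysosome (-0.34 to -0.21), cholesterol (-0.73 to -0.48), ATF4 (-0.74 to -0.59) and interferon (-1.09 to -0.81) lists stayed negative. The 3 libraries per group and the low level of genes such as Gpnmb limit the precision.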
